A study of Mus musculus with 6 samples.

Results

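The RNAs described here encode the microtubule motors kinesin and cytoplasmic dynein and the dynein partner dynactin, measured in mouse cerebral cortex. Members were all transcripts whose gene symbol began with Kif and a digit or c, Klc and a digit, Dynl, Dync1i, Dync1l or Dctn, which selects by name and not by any measured value. They were 409 transcripts under 72 gene identifiers (71 symbols, because Kif11 has 2 identifiers), of 141196 transcripts and 52962 genes in all. By class, 43 gene identifiers were kinesin heavy chains, 4 kinesin light chains, 13 dynein subunits and 6 dynactin subunits. The remaining 6 were Kif1bp, which encodes a kinesin-binding protein, 4 pseudogenes and 1 antisense RNA. A transcript entered the tail tests with at least 10 reads with a measured tail in each of the 6 libraries, and 77 transcripts of 38 of these genes did.

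Poly(A) RNA from the cortex of C57BL/6 mice was read directly on a nanopore instrument, so each read is 1 RNA molecule with its own poly(A) tail. The groups were 3 wild-type libraries and 3 libraries labelled Fmr1 KO, a knockout of the gene for the RNA-binding protein FMRP. The labels give neither the age of the mice, nor the knockout allele, nor whether libraries of a group came from separate animals, so every p-value measures the spread between these libraries, which may be technical. In bulk cortex, fewer cells of a type and less RNA per cell cannot be told apart.

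Kinesins and dynein use ATP to walk along microtubules. Most kinesins move toward the plus end and carry vesicles, mitochondria and RNA granules outward along axons and dendrites, whereas cytoplasmic dynein, with its activator dynactin, moves toward the minus end and carries cargo back to the cell body. In kinesin-1, a pair of heavy chains binds a pair of light chains that choose cargo; in dynein, intermediate, light intermediate and light chains hang from the heavy chain and bind cargo and dynactin. The poly(A) tail at the 3′ end of an mRNA binds poly(A)-binding protein and takes part in translation and decay.

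The libraries held 2404074 to 3849077 reads with a tail, and the motor members took 125803 of 20073003. Fmr1 was at 41.3, 44.9 and 45.9 CPM (tail reads scaled to library size by TMM) in wild type and at 10.9, 11.7 and 8.20 in the knockout (log2 change of -2.13 ± 0.15 SE, adjusted p = 1.2e-10, edgeR quasi-likelihood test), so the labels and this gene go together. Summed levels of 5 excitatory neuron markers were 3670 to 4175 CPM in wild type and 4424 to 4648 in the knockout, without overlap. The 5 choroid plexus markers summed to 35.1 to 829 in wild type and 14.1 to 28.4 in the knockout. The 5 markers of dividing cells summed to only 2.74 to 5.85 CPM over all libraries. The part of these differences in cell content in the motor results was not tested.

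The ends of the mRNAs are shown first because tails are added there. The following are 30-base windows at or near the annotated 3′ end of the most read transcript of the genes with the 5 shortest and 3 longest mean tails, read 5′ to 3′ from GENCODE release M21 (build mm10). Capitals mark AATAAA or ATTAAA, the hexamers bound by the cleavage machinery, where present within 50 bases of the end.
Dynll2-201 (chr11:87979528-87979557, minus strand): ttggacATTAAAggtcgattgatgcacttc
Dynlrb1-202 (chr2:155250248-155250277, plus strand): ttaaagtaaaaattacttcaacccccctac
Kif1c-203 (chr11:70731935-70731964, plus strand): ggaagctgagATTAAAggcatgtgtcatta
Dctn3-201 (chr4:41714798-41714827, minus strand): agagataaagagttcttacatcatttgact
Dynll1-201 (chr5:115297124-115297153, minus strand): tatagaAATAAAattggtttgatggtgtat
Kifc2-201 (chr15:76668167-76668196, plus strand): aacctaATTAAAgctgtgggttttcagcaa
Kif21b-204 (chr1:136177969-136177998, plus strand): gagcttgtcataAATAAAaccattgtccac
Dync1i2-208 (chr2:71263267-71263296, plus strand): tctataAATAAAaacaaatatatgctaact
Both hexamers were searched on the transcript strand only. Of 76 tested motor transcripts with a sequence, 66 held one of them, 47 with AATAAA nearest the end and 19 with ATTAAA; among all 15917 tested transcripts with a sequence the share was 82.1%. Dynlrb1-202 and Dctn3-201, with short tails, held neither, nor did Kif13a-201, with a mean of 168 nt over the libraries. ATTAAA was held by Dynll2 and Kif1c, among the shortest, and by Kifc2, among the longest.

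Kinesin genes had a longer median tail than dynein and dynactin genes in every library. With each gene represented by its most read transcript, the median over 19 kinesin heavy and light chain genes was 148, 154 and 155 nt in wild type and 149.98, 151 and 149.7 nt in the knockout. The median over 18 dynein and dynactin genes was 135, 139 and 139.7 nt in wild type and 134, 131 and 142 nt in the knockout. All 6 kinesin medians lay above all 6 dynein and dynactin medians, and the difference within a library was 12.6, 15.02 and 14.8 nt in wild type and 15.9, 19.6 and 7.79 nt in the knockout, on average 14.3 ± 3.92 nt (SD, n = 6). The median over all 10619 genes lay between them in each library, at 139 to 145 nt. No p is given for these medians, since the members were chosen with results known. The SD is over 6 libraries of the same genes, so it does not measure the spread between genes.

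**Figure D1:**
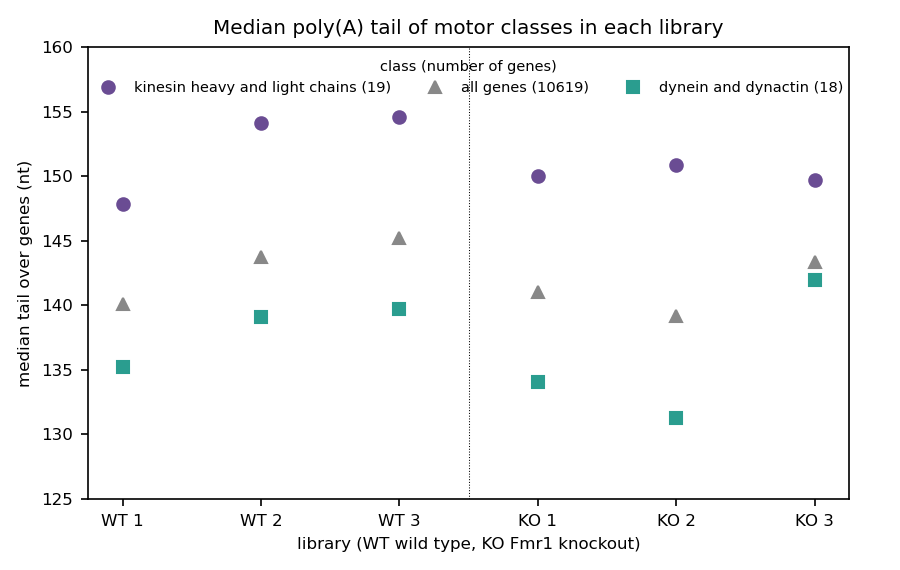
Median poly(A) tail in nt (vertical axis, not starting at 0) over kinesin genes, dynein and dynactin genes, and all genes, in each of 3 wild-type and 3 Fmr1 knockout libraries; each symbol is 1 library. Kinesin medians of 148 to 155 nt lie above the all-gene medians, and dynein and dynactin medians of 131 to 142 nt lie below them, in every library.

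Single genes of the classes overlapped. Of the 19 kinesin genes, 10 lay above the all-gene median in all 6 libraries, 1 below it in all 6 and 8 on both sides. Of the 18 dynein and dynactin genes, 6 lay above it in all 6 libraries, 7 below it and 5 on both sides. For comparison, 28.7% of 10651 genes lay above it in all libraries and 30.7% below. These 10651 include genes whose most read transcript missed the read minimum while another met it, and the 10619 behind the median do not. Kinesin transcripts are also longer, with a median of 6142 nt for the most read transcripts against 2326 nt for dynein and dynactin. Across the 38 motor genes, Spearman's rho between annotated transcript length and tail was 0.42 to 0.53 per library, close to the 0.51 to 0.54 across 10651 genes. It was 0.47 to 0.62 within dynein and dynactin and 0.03 to 0.26 within kinesin. These correlations are across genes that share libraries and are descriptions only; the part of transcript length in the class difference was not tested.

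Among kinesin-1 heavy chains, which drive fast outward axonal transport, tails lay close together. Kif5a, the neuronal heavy chain, had 147, 148 and 150.5 nt in wild type and 146, 143 and 147 nt in the knockout. Kif5c, also neuronal, had 150.1, 154 and 154 nt in wild type and 145, 148 and 149.7 nt in the knockout, and Kif5b, the heavy chain of most tissues, spanned 139.7 to 154 nt. The 3 genes thus overlapped in their library values. For Kif5c the knockout libraries all lay below the wild-type ones, without passing the test (log2 change of -0.05 ± 0.04, adjusted p = 0.93, limma).

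The other kinesin classes spread wider. Kif1a, a kinesin-3 that carries synaptic vesicle precursors, had 144 to 146 nt in all 6 libraries, Kif1b 149.98 to 164 nt, and Kif1c 99.9 to 129 nt, the shortest mean among kinesins, on 119 reads. Among kinesin-2 genes, which include the intraflagellar and dendritic motors, Kif3c had 132 to 149 nt, Kif3b 141 to 156 nt, and Kif17 140.4 to 178 nt. Kif2a, a kinesin-13 that takes microtubules apart instead of walking along them, had 155 to 174 nt. Among kinesins, the longest mean tails were those of Kif21b and Kifc2, followed by that of Kif13b. The most read Kif21b transcript, Kif21b-204, is annotated for nonsense-mediated decay. Kif21b, a kinesin-4 that also restrains microtubule growth, had 202, 199.8 and 228 nt in wild type and 195, 189 and 194 nt in the knockout, and its coding transcript Kif21b-201 had 198 to 232 nt. Kif21a had 157 to 182 nt. Kifc2, a minus-end kinesin-14, had 182, 182 and 183 nt in wild type and 182, 183 and 185 nt in the knockout, a range narrower than that of any other motor gene. Kifc3, of the same class, had 136 to 181 nt on far fewer reads, 239 against 3344 for Kifc2. Kif13a had 138 to 184 nt and Kif13b 158 to 204 nt, both kinesin-3 genes with at most 211 reads, so that their order among the long-tailed kinesins was not resolved.

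The kinesin light chains Klc1, Klc2 and Klc4, which link kinesin-1 to cargo, had 138 to 148, 146 to 151 and 129.7 to 181 nt. Klc4 rested on 200 reads. Klc1 and Klc2 lay with the kinesin-1 heavy chains, whose ranges they overlapped. Kif1bp, which binds several kinesins and blocks their motor domains, had 127 to 137 nt.

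Dynein subunits ranged from the shortest motor tails to some of the longest. The light chains are small dimers, some of them shared with other protein complexes. Dynll2 had 104, 105 and 98.5 nt in wild type and 100.02, 98.6 and 104 nt in the knockout, the shortest mean tail of all 38 genes, and its 3 tested transcripts, which share a 3′ end, had 92.0 to 109 nt. Dynlrb1, the roadblock light chain, followed with 105, 107 and 109.7 nt in wild type and 107, 107 and 109 nt in the knockout. Dynll1 had 119 to 126 nt. Its protein matches that of Dynll2 at 83 of 89 residues, yet no library value of the one overlapped the other. Dynlt3, of the Tctex1 light chains, stood apart from these at 141 to 159.6 nt.

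Longer tails were found on other subunits. The light intermediate chains Dync1li1 and Dync1li2, which bind activating adaptors, had 155 to 173 nt and 156 to 179.5 nt, overlapping each other and lying above every Dynll1, Dynll2 and Dynlrb1 value. The 2 intermediate chains bind dynactin, and their most read transcripts differed. Dync1i1 had 132, 125.3 and 140.4 nt in wild type and 134, 127 and 139.7 nt in the knockout. Dync1i2 had 170.0, 213 and 186 nt in wild type and 179, 172 and 188 nt in the knockout, above Dync1i1 in all 6 libraries. All 4 tested Dync1i1 transcripts stayed within 119 to 149 nt, and a less read Dync1i2 transcript, Dync1i2-201, overlapped them at 124 to 155 nt.

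In dynactin, Dctn3, the small p24 subunit of the shoulder, was shortest with 120.4, 119.9 and 123 nt in wild type and 118, 119.98 and 121 nt in the knockout. Dctn5 and Dctn6, a pair of pointed-end subunits, had 122 to 135 and 139.9 to 146 nt, without overlap between them. Dctn1, the microtubule-binding p150Glued subunit, had 135 to 143 nt, Dctn2 (dynamitin) 147 to 161 nt, and Dctn4, of the pointed end, 151 to 174 nt. In the order Dctn3, Dctn5, Dctn1, Dctn6, Dctn2, Dctn4, the library values of Dctn3 and Dctn5, of Dctn1 and Dctn6 and of Dctn2 and Dctn4 overlapped, and those of the other neighbours did not.

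**Figure D2:**
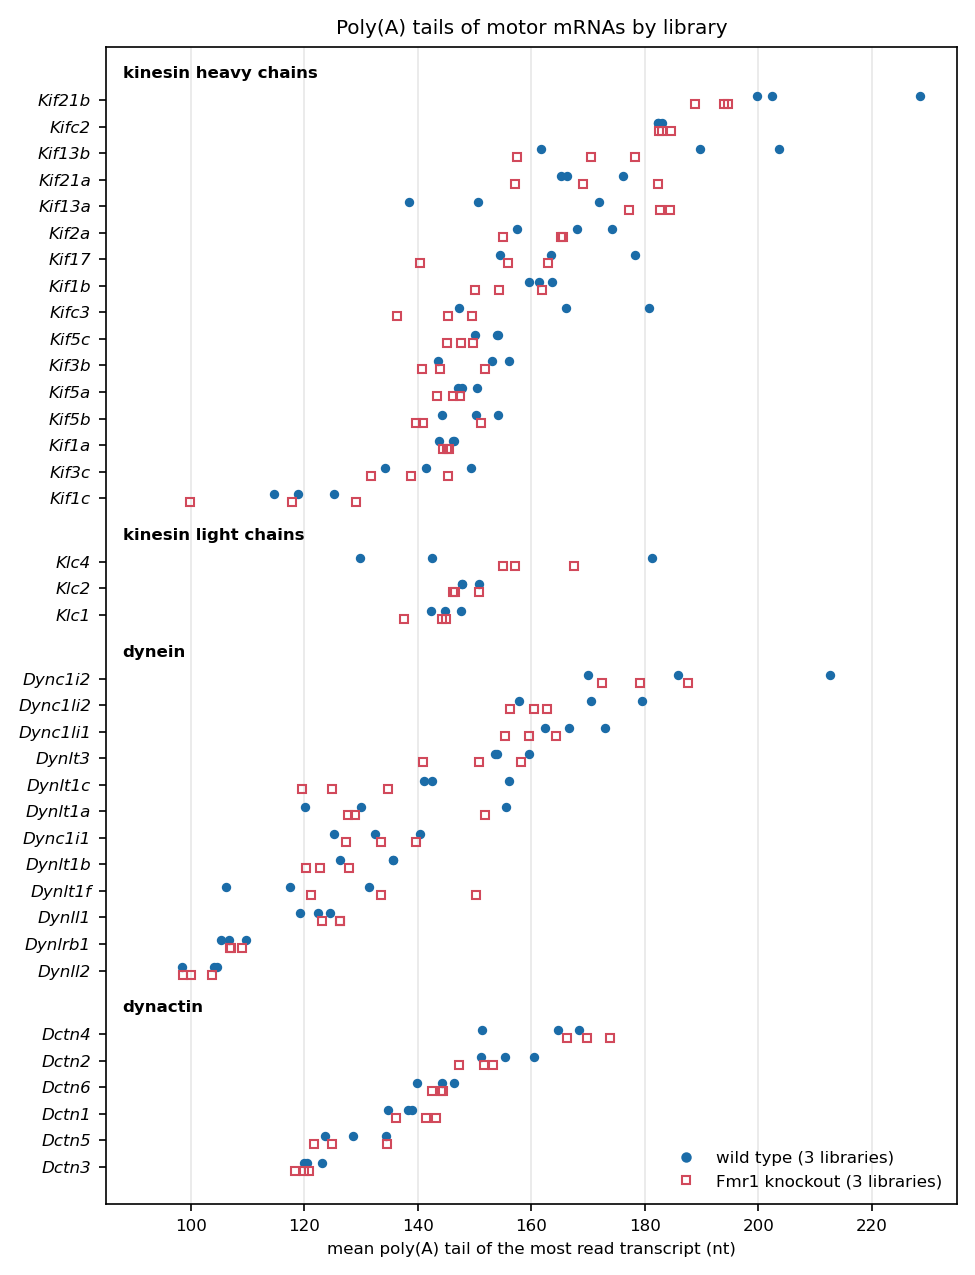
Mean poly(A) tail in nt (horizontal axis) of the most read transcript of 37 motor genes, grouped by class and ordered by mean tail; filled circles are the 3 wild-type libraries and open squares the 3 Fmr1 knockout libraries. Dynll2 and Dynlrb1 lie near 100 nt and Kif21b near 200 nt, and wild-type and knockout symbols are mixed for most genes.

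No motor tail passed the test for a difference between knockout and wild type. The limma fit over 16168 transcripts called 0 (0%), and so 0 of 77 motor transcripts; the smallest adjusted p among motors was 0.80. At an unadjusted p under 0.05 there were 4 motor transcripts, beside 5.84% of all. The direction was also near the background: 44 of 77 motor transcripts had a negative log2 change, against 58.8% of all. The median log2 change was -0.03 over 40 kinesin and light chain transcripts, 0.00 over 35 dynein and dynactin transcripts and -0.01 over all. Groups did not overlap for 5 motor transcripts with lower knockout tails, beside 7.53% of all, and for 2 with higher knockout tails, beside 3.41%. In simulated tails with a log2 change of 0.5 in 200 of 16168 transcripts, the fit called 58.5% of them. The largest motor change was smaller, at 0.33 for Kifc3-203, and changes of that size were not simulated for this fit.

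The 4 transcripts were of 4 genes and went both ways. Dynlt1c-201, of a Tctex1 light chain copy, had 156, 143 and 141 nt in wild type and 135, 124.9 and 119.6 nt in the knockout. This was a log2 change of -0.21 ± 0.06, on 174 reads. Its near-identical copies Dynlt1f-201, Dynlt1a-201 and Dynlt1b-201 had log2 changes of 0.19 ± 0.10, 0.01 ± 0.11 and -0.10 ± 0.05. How reads were assigned between the copies is not stated. Dynlrb1-201, a noncoding transcript of the roadblock gene, had 109, 113 and 116 nt in wild type and 107, 99.5 and 102 nt in the knockout. Its coding partner Dynlrb1-202, with 6470 reads against 398, changed by a log2 of 0.01 ± 0.04. Kifc3-203 had 153, 120.2 and 118 nt in wild type and 159.9, 156 and 175 nt in the knockout, on 95 reads, while the other tested Kifc3 transcripts had negative changes of -0.19 ± 0.08 and -0.12 ± 0.07. Kif13a-201 had 138, 151 and 172 nt in wild type and 184, 183 and 177 nt in the knockout, on 156 reads. All 4 had an adjusted p of 0.80.

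In some motor genes, transcripts of the same gene differed in tail length within libraries. For each gene the most read and second most read transcript were compared, over all 6 libraries, and 3 of 21 motor genes passed (adjusted p under 0.05, limma), beside 14.1% of 3612 genes, so that the motor share was that of the whole table. The second transcript had the longer tail in Klc1 and Dctn5, beside 8.89% of all genes, and the first in Dctn4, beside 5.23%. How reads were assigned between transcripts that share a 3′ end is not stated. In single libraries, tail reads reached 100% of the reads in the abundance column for Dctn5-202 and 103% for Dync1i2-201. The part of read assignment in these differences was not tested.

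Klc1 (chr12:111758849-111807844, plus strand) showed it on the most reads. Klc1-202, with 6166 reads, had 145, 142 and 148 nt in wild type and 145, 138 and 144 nt in the knockout. Klc1-203, with 2963 reads, had 164, 172 and 172 nt in wild type and 164, 156 and 158 nt in the knockout. Every value of Klc1-203 lay above every value of Klc1-202, on average by 20.6 ± 5.63 nt (SD, n = 6; log2 difference of -0.19 ± 0.03 for Klc1-202 over Klc1-203, adjusted p = 0.00855, limma). Both transcripts end within 2 bases of each other behind the same AATAAA. They differ by exons that change the C-terminal end of the light chain, where Klc1 splice forms are known to differ in cargo. The coding bases present in Klc1-203 and absent from Klc1-202 come first, then the shared 3′ window of Klc1-203 with its AATAAA in capitals.
Klc1-203 first extra coding segment (chr12:111789460-111789486, plus strand): gtgagtatgagcgtagagtggaatggg
Klc1-203 second extra coding segment (chr12:111793649-111793678, plus strand): atgagaaagatgaagctcgggctggttaaa
Klc1-203 3′ window (chr12:111794866-111794895, plus strand): tttctaacttctAATAAActcactccaact
The segments hold 27 and 30 coding bases. Klc1-202 also has 87 bases of 5′ sequence that Klc1-203 lacks. Klc1-201, which ends further downstream behind ATTAAA, had 124.6 to 149 nt on 228 reads.

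In Dctn5 (chr7:122133041-122149044, plus strand) the longer tail was on a transcript that keeps an intron. Dctn5-201, the coding form with 1358 reads, had 124, 129 and 134 nt in wild type and 122, 124.8 and 135 nt in the knockout. Dctn5-202, annotated as a retained intron with 356 reads, had 147, 145 and 154 nt in wild type and 147, 174 and 167 nt in the knockout, longer in 6 of 6 libraries (log2 difference of -0.28 ± 0.04 for the coding form over the other, adjusted p = 0.00265, limma). It keeps 987 bases at chr7:122133182-122134168 and shares the 3′ end of the coding form. The Dctn4 transcripts end at different sites. Dctn4-201 had 151, 165 and 168 nt in wild type and 166, 174 and 169.8 nt in the knockout. Dctn4-204, which ends 827 bases upstream without either hexamer, had 142, 126 and 148 nt in wild type and 139.6, 117 and 119 nt in the knockout. It was the shorter in 6 of 6 libraries, on 98 reads (log2 difference of 0.33 ± 0.06, adjusted p = 0.00829, limma).

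At an unadjusted p under 0.05 there were 7 such motor genes, beside 26.7% of all, the further 4 being Dctn3, Kif1a, Kif1bp and Kifc2, with adjusted p from 0.054 to 0.17. In Kif1bp the second transcript was the longer in 6 of 6 libraries by 11.2 ± 7.51 nt, and in Dctn3 the most read transcript was the longer in 5 of 6. For Kifc2, the second transcript, Kifc2-206, annotated for nonsense-mediated decay, had 185, 204 and 191 nt in wild type and 194, 205 and 199 nt in the knockout, longer than the coding Kifc2-201 in 6 of 6 libraries. Kifc2-204, annotated as a retained intron, had 211, 226 and 209 nt in wild type and 215, 201 and 227 nt in the knockout. Both keep the same 109-base intron and have the 3′ end of the coding form to within 1 base. The intron is not the only difference. Kifc2-206 also lacks 139 coding bases and 70 other bases of Kifc2-201. Kifc2-204 lacks bases too, since it is 3193 nt long with the intron against 3218 nt for Kifc2-201. The intron is shown with its first and last 2 bases, the splice sites, in capitals.
Kifc2 retained intron (chr15:76662673-76662781, plus strand): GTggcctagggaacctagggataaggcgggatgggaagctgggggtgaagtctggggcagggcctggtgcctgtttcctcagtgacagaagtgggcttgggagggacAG
Other pairs with a retained intron did not pass the test. Dynll1-206, with a retained intron and its own 3′ end, had 122 to 138 nt against 119 to 126 nt for the coding form. It was the longer in 5 of 6 libraries (adjusted p = 0.25, limma). Dctn6-210 had 123 to 154 nt against 139.9 to 146 nt and was the longer in 2 of 6 (adjusted p = 0.73, limma).

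The most read pair did not pass in Kif1a, where Kif1a-204 was longer than Kif1a-202 in 5 of 6 libraries (adjusted p = 0.071, limma), or in Dync1i2 (adjusted p = 0.98 for Dync1i2-208 against Dync1i2-206). Their less read transcripts were chosen for description after their values were seen and carry no test. Kif1a-204 (chr1:93015464-93101951, minus strand), with 7771 reads, had 144 to 146 nt. Kif1a-202, Kif1a-203 and Kif1a-210 end 2287 bases or more upstream of it, with 102 to 142 reads each, and had 101 to 159.9, 88.7 to 126 and 93.6 to 114 nt. Tail reads came to 77.8% of the reads in the abundance column for Kif1a-204 and to 51.8%, 45.0% and 31.9% for the other transcripts. The part of read assignment in these percentages was not tested. The 3′ windows of the most read pair, with AATAAA in capitals, follow.
Kif1a-204 (chr1:93015464-93015493, minus strand): aattaagaAATAAAtgtggctctcatgcaa
Kif1a-202 (chr1:93017751-93017780, minus strand): tggagcAATAAAggtggtgtgagcagtttc
Kif1a-203 and Kif1a-210 hold neither hexamer within 50 bases of their annotated ends.

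Dync1i2-201 had 138, 155 and 124 nt in wild type and 155, 144 and 153 nt in the knockout, on 341 reads. The other 3 tested transcripts, Dync1i2-208, Dync1i2-206 and Dync1i2-207, had 157 to 222 nt in all, and none of their values fell within the range of Dync1i2-201. Dync1i2-201 lacks a pair of coding exons, of 18 and 60 bases, that Dync1i2-208 and Dync1i2-206 hold, while Dync1i2-207 lacks only the smaller one. These exons are not the only difference. Dync1i2-201 is the longer transcript, at 2631 nt against 2565 nt for Dync1i2-208, so it also holds bases that Dync1i2-208 lacks. The 3′ ends of these transcripts lie within 6 bases of each other.
Dync1i2-208 small exon (chr2:71227827-71227844, plus strand): ttttttctgagtactggg
Dync1i2-208 larger exon (chr2:71233649-71233708, plus strand): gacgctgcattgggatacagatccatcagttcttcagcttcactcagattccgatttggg
The knockout minus wild-type change in the tail difference between transcripts passed for 0 of 21 motor genes and 0 of 3612 genes (limma); at an unadjusted p under 0.05 there were 2 motor genes, Dctn3 and Dync1i2, and 208 in all.

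**Figure D3:**
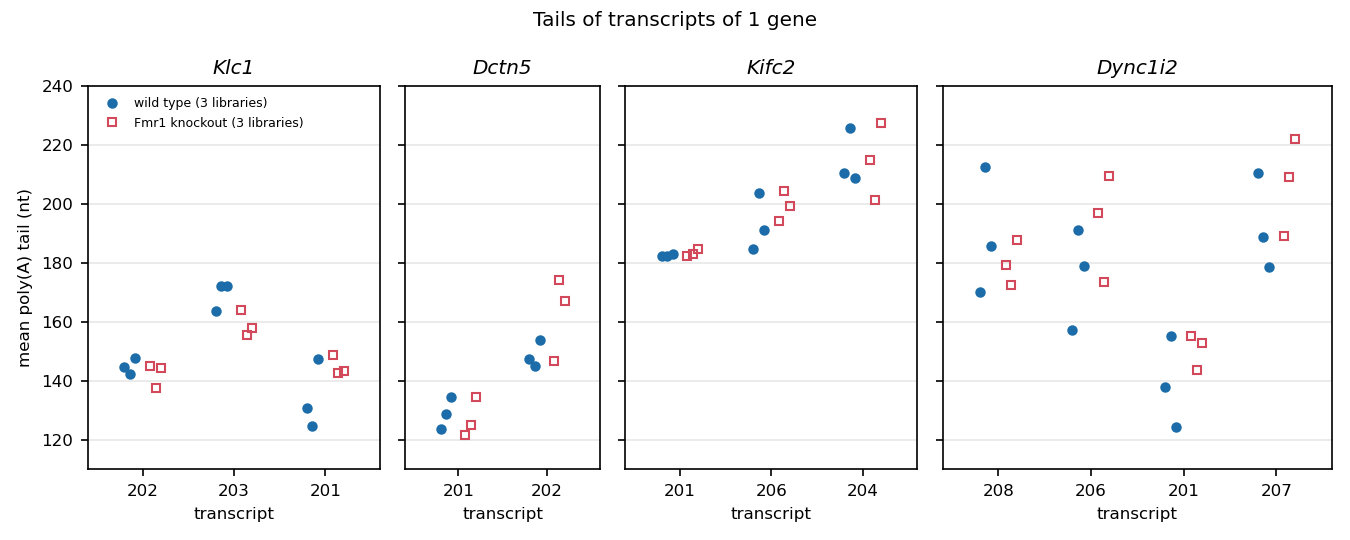
Mean poly(A) tail in nt (vertical axis, not starting at 0) of the tested transcripts of Klc1, Dctn5, Kifc2 and Dync1i2; filled circles are 3 wild-type and open squares 3 Fmr1 knockout libraries. Klc1-203 and Dctn5-202 lie above Klc1-202 and Dctn5-201 in every library, and Dync1i2-201 lies below its 3 partners.

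In RNA abundance, 1 motor gene passed the test: Dynlt1b, a copy of the Tctex1 dynein light chain gene, fell in the knockout. Its tail reads numbered 77, 99 and 108 in wild type and 54, 37 and 38 in the knockout, or 23.6, 27.0 and 27.8 CPM against 15.9, 15.6 and 11.2. No knockout library reached any wild-type one. The means were 26.2 ± 2.24 and 14.2 ± 2.66 (SD, n = 3 each), a log2 change of -0.90 ± 0.16 SE (adjusted p = 0.00296, edgeR quasi-likelihood test). It was 1 of 41 motor genes tested, beside 1.03% of 12543 genes (0.454% lower and 0.574% higher in the knockout). The excitatory marker sums, at 3670 to 4175 CPM in wild type and 4424 to 4648 in the knockout, and the choroid plexus sums, at 35.1 to 829 and 14.1 to 28.4, also did not overlap between the groups. Ttr, the most abundant choroid plexus marker, had a log2 change of -4.69 (adjusted p = 6.4e-05, edgeR). The part of either in this result was not tested. Without knockout replicate 3 the adjusted p was 0.0552, with a log2 change of -0.73. All reads recovered from RPM, with or without a tail, gave Dynlt1b 104, 142 and 142 in wild type and 78, 50 and 53 in the knockout.

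The read assignment behind this value is uncertain, because mouse chromosome 17 carries 4 Dynlt1 copies. Dynlt1b (chr17:6430112-6436296, plus strand) matches the aligned bases of Dynlt1f at 764 of 771, of Dynlt1c at 765 of 771 and of Dynlt1a at 762 of 771. Their coding sequences, 339 bases long, differ from that of Dynlt1b at 1 position. Counted from the A of the start codon, it is A21C in each of the other copies. The window holds coding bases 6 to 27, with position 21 in capitals.
Dynlt1b (chr17:6430217-6430238, plus strand): agacttccaggcctcAgaggag
Dynlt1a (chr17:6317374-6317395, minus strand): agacttccaggcctcCgaggag
Dynlt1c (chr17:6601815-6601836, plus strand): agacttccaggcctcCgaggag
Dynlt1f (chr17:6655774-6655795, minus strand): agacttccaggcctcCgaggag
None of the other copies passed. Dynlt1a had a log2 change of -0.24 ± 0.20, Dynlt1f of -0.31 ± 0.24 and Dynlt1c of 0.15 ± 0.21, with adjusted p of 0.66, 0.64 and 0.81 (edgeR). Summed over the copies, tail reads were 190, 209 and 232 in wild type and 153, 116 and 132 in the knockout, and this sum, added after seeing the data, passed with a smaller log2 change of -0.41 ± 0.10 (adjusted p = 0.0363, edgeR). The tail and abundance columns also assigned copies differently: Dynlt1a had 239 tail reads but 168 reads recovered from RPM, which counts reads with and without a tail.

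**Figure D4:**
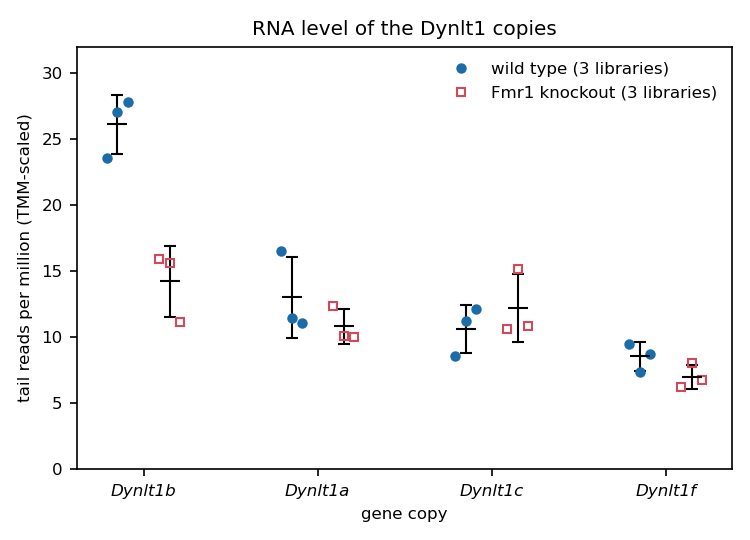
Tail reads in CPM after TMM scaling (vertical axis from 0) of 4 Dynlt1 gene copies; filled circles are 3 wild-type and open squares 3 Fmr1 knockout libraries, with the mean and SD as bars. The Dynlt1b symbols separate by genotype, at 23.6 to 27.8 against 11.2 to 15.9, and those of the other copies overlap.

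Of the 41 motor genes tested, 9 had an unadjusted p under 0.05, beside 12.9% of all genes, 7 of them with lower and 2 with higher knockout values. Groups did not overlap for 8 with lower knockout values, beside 8.16% of all genes, and for 2 with higher values, beside 9.12%. The 8 not overlapping and lower included 7 of 22 kinesin and light chain genes but 1 of 18 dynein and dynactin genes, namely Dynlt1b; the difference between the classes was not tested. The median log2 change was -0.09 over kinesin and light chain genes, -0.02 over dynein and dynactin and 0.00 over all genes.

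Kinesins did not pass, and the nearest went opposite ways. Kifc2 had 213, 209.7 and 240.3 CPM in wild type and 269, 262 and 253 in the knockout (log2 change of 0.24 ± 0.07, adjusted p = 0.093, edgeR). Kif1a had 442, 429 and 421 in wild type and 395, 385 and 364 in the knockout (log2 change of -0.17 ± 0.06, adjusted p = 0.18, edgeR). In neither did the groups overlap. Without wild-type replicate 3, Kifc2 passed with a log2 change of 0.31 and an adjusted p of 0.0235 (edgeR). Kifc3, Kif13a, Kif1c and Kif21b had log2 changes from -0.30 to -0.61 with adjusted p from 0.27 to 0.35. Kif13a, at -0.61, was at -0.31 without knockout replicate 1 and at -0.40 without wild-type replicate 3, and Kif21b, at -0.30, was at -0.19 without wild-type replicate 3.

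For kinesin-1 the log2 change was 0.10 ± 0.05 for Kif5a, -0.10 ± 0.08 for Kif5b and -0.10 ± 0.06 for Kif5c, and 0.05 ± 0.06, -0.05 ± 0.07 and -0.21 ± 0.19 for Klc1, Klc2 and Klc4. Among dynein light chains, Dynlrb1 had 315, 338 and 341 CPM in wild type and 362, 353 and 379 in the knockout (log2 change of 0.14 ± 0.06, adjusted p = 0.32, edgeR). Dynll2 rested on 1 library: it had 511, 289 and 241 in wild type and 202, 293 and 289 in the knockout, with a log2 change of -0.41 ± 0.16 and an adjusted p of 0.26 (edgeR). Its log2 change was -0.03 without wild-type replicate 1 and -0.25 without knockout replicate 1, and without wild-type replicate 3 it was -0.61 with an adjusted p of 0.0225. The 6 dynactin genes had log2 changes from -0.04 to 0.07 and none an unadjusted p under 0.05.

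**Figure D5:**
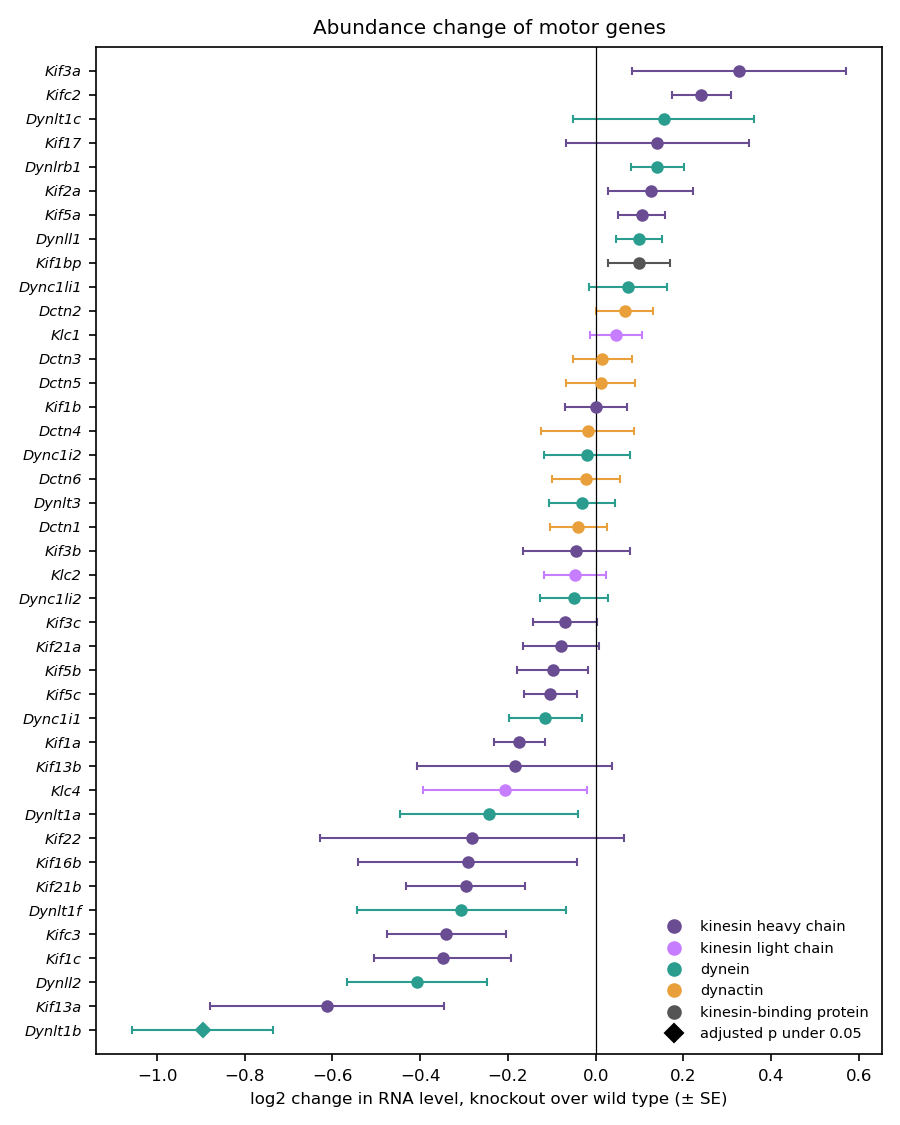
Log2 change in RNA level, knockout over wild type (horizontal axis, bars are ± SE), of the 41 motor genes tested, coloured by class. The Dynlt1b diamond at -0.90 marks an adjusted p under 0.05; the 6 dynactin genes lie between -0.04 and 0.07.

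Of the 34 gene identifiers without a transcript in the tail test, 25 had 1 to 99 tail reads and 7 had none, namely Kif12, Kif28, the 4 pseudogenes and the antisense RNA. The mitotic kinesins Kif2c, Kif18b, Kif11, Kif20b and Kif23 had 4, 4, 6, 5 and 7 tail reads in all 6 libraries under their annotated identifiers. Among further mitotic kinesins, Kif14, Kif4, Kif15, Kif18a, Kifc1, Kif20a and Kif22 had 3, 10, 10, 13, 13, 40 and 73 tail reads. Kif9 and Dynlrb2, of motile cilia, had 30 and 49, and Klc3, a light chain known from testis, had 28. Kif3a, which pairs with Kif3b in kinesin-2, had 153 tail reads spread over 8 transcripts, none of which reached the minimum for a tail test. Its tail reads came to 5.21 to 9.43 CPM. Its deposited abundance, which counts reads with and without a tail, was 126 to 146 RPM. In whole libraries, at least 74.8% of reads had a tail. The part of read assignment in this gap for Kif3a was not tested. The abundance test of Kif3a used only its tail reads (log2 change of 0.33 ± 0.24, adjusted p = 0.63, edgeR).

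For the share of a gene's reads taken by each transcript, 0 of 78 transcripts in 24 motor genes passed (edgeR diffSpliceDGE), beside 0.0469% of 12789. At an unadjusted p under 0.05 there were 5, beside 2.56% of all, and groups did not overlap for 11, beside 10.7%. The NMD-annotated Kifc2-206 took 24.5, 21.7 and 18.01% of Kifc2 reads in wild type and 16.98, 16.7 and 16.4% in the knockout, and the coding Kifc2-201 took 62.6, 66.1 and 69.8% against 72.3, 73.6 and 73.6%. Neither pair of groups overlapped. Klc1-201 took 2.10, 1.88 and 1.99% in wild type and 2.96, 2.44 and 3.06% in the knockout. The remaining 3 were Dynll1-206, Klc2-203 and Kif1a-203, and all 5 had an adjusted p of 0.9999. In simulated counts with a 1 log2 change in 200 transcripts that each held a minority of their gene's reads, this test called 41.0% of them.

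In the comparison of knockout with wild type, motor genes outside the name rule gave a similar picture. None of 10 tested subunits, which included the dynein heavy chain Dync1h1, the kinesin-2 partner Kifap3 and the dynactin filament genes Actr1a and Actr1b, passed in abundance (edgeR, beside 1.03% of all genes) or in tail (limma, beside 0% of all transcripts), and none had an unadjusted p under 0.05 in either. Of 39 cargo adaptors and regulators tested for abundance, 17 had higher and 22 lower knockout values and 1 passed, beside 1.03% of all genes. That was Hap1, the huntingtin-associated protein that binds dynactin and kinesin light chains, which fell from 85.7, 66.7 and 84.4 CPM in wild type to 59.0, 58.9 and 41.9 in the knockout (log2 change of -0.59 ± 0.11, adjusted p = 0.00724, edgeR). Hap1 did not pass without knockout replicate 3, nor with limma on log2(RPM + 1) or log2(RPM + 0.1). The excitatory and choroid plexus marker sums separated the groups here too, and their part was not tested. None of 37 adaptor tails passed, beside 0% of all transcripts. The median wild-type tail was 145 nt for the adaptors and 149.8 nt for these subunits. The subunit median lay above the wild-type library medians of the dynein and dynactin genes under the name rule, at 135 to 139.7 nt. However, it mixes motors. Kifap3, of kinesin-2, had a wild-type mean of 157 nt. Dync2h1 and Dync2li1, of a separate dynein, dynein-2, had 179 and 153 nt. Of the others, Dync1h1, Actr1b and Capza1 had 151, 155 and 149 nt. Actr1a, Capza2 and Actr10 had 142, 141 and 139 nt, and Capzb had 111 nt. The class medians given above were computed only for the genes that the name rule takes.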

How the data were processed

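Poly(A) RNA of 6 cortex libraries was sequenced with a direct RNA nanopore kit, per the labels' protocols. Per the file headers, the deposited values are, for each transcript and library, a mean tail length in nt (treated as a signal that is never negative), the count of reads that gave it and the RNA level in RPM. No source used here states how tails were estimated. Without giving roles, the submitters' processing notes list DESeq2, Salmon 1.5.2, SAMtools 1.9, minimap2 2.17 and build mm10. Transcript names, classes and sequences came from GENCODE M21, which may not be the authors' release.

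Members and gene lists were chosen with earlier results of these data known. Named were all kinesin-1, light chain, dynein and dynactin genes with a tested transcript, the 3 most read of each other kinesin class, the 5 longest and 5 shortest tails, and members with an unadjusted p under 0.05. Every test was fitted on the whole table and adjusted by Benjamini-Hochberg at 0.05. Tails, as log2(nt + 1) with a minimum of 10 tail reads in every library, were tested with limma 3.58.1 (variance trend), as was the difference between the 2 most read transcripts of a gene. Tail-read counts per gene were tested with edgeR 4.0.16 (TMM, filterByExpr, quasi-likelihood) in R 4.3.3, and shares with its diffSpliceDGE. Each fit was tested on simulated data. Deposited RPM values were whole multiples of 1 read (within 0.01) for 99.9% of values in wild-type replicate 1 and 100% elsewhere, giving 3212071 to 4710220 reads, and the edgeR fit on these called 101 genes. Few reads limit a mean tail's precision. No pair of libraries was identical.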

Additional observations from a re-analysis of the deposited data

How the results depend on the processing

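The motor results were recomputed under other filters, scalings and tools, and without each library. No motor tail passed in any of 15 alternatives; over all transcripts the count of 0 became 11 with the variance trend on read number and 22 with weights from read number. The number of motor genes called in abundance, 1 in the report, was 0 with DESeq2 1.42.0, 3 without a filter on low counts and 0 to 3 without single libraries: Kifc2 and Dynll2 were called beside Dynlt1b without a filter and without wild-type replicate 3, and none without knockout replicate 3. DESeq2 gave an adjusted p to 2649 genes, Dynlt1b not among them, and called 88. Over all genes the 129 calls became 249 without a filter, 40 and 33 with limma on log2(RPM + 1) and log2(RPM + 0.1), and 57 to 206 without single libraries. The count of adaptors called, 1, was 0 with either limma setting and 0 to 1 without single libraries, the 0 being without knockout replicate 3. Transcript shares over all genes gave 3 calls in place of 6 with at least 10 reads in every library. Klc1 and Dctn5 passed in all 10 alternatives for tails between transcripts and Dctn4 in the 9 that tested it; over all genes 303 passed in place of 510 with a minimum of 30 reads. Dctn3 passed without wild-type replicate 3 and Kif1a without knockout replicate 1. The kinesin minus dynein and dynactin median was 10.1 nt with the mean over all reads of a gene in place of 14.3 nt, and stayed positive in all 10 alternatives. Same-numbered libraries deviated from their group means with correlations of -0.07 to 0.05, and differently numbered ones with -0.10 to 0.07. These values gave no sign of pairing by number. The labels do not state it either way, and pairing that touches few genes would not show in them. With the replicate block, 0 tails, 92 genes in abundance, 6 shares and 444 transcript pairs passed, among them 0, 1, 0 and 3 motor ones. Read number limits the precision of single tails: among the most read transcripts of the 38 genes, Kif1c-203 had the fewest reads, 119.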
